A study of Mus musculus with 12 samples.

Results

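Mouse epiblast stem cell lines of the type called rsEpiSC were derived from embryos at embryonic day (E) 6.5 and at E5.75, and the 4 arrays of these lines, 2 a stage, were compared over the 21062 autosomal genes among the 22180 genes measured. Genes on the X and Y chromosomes were left out because the sex of the lines is not given, and sex and stage cannot be told apart. The series held 12 arrays in 6 groups of 2: rsEpiSC derived at E6.5, rsEpiSC derived at E5.75, epiblast tissue dissected at E6.5 and at E5.75, EpiSC derived at E5.75 and embryonic stem cells (ESC) derived at E3.5. Nothing in the labels says that the 2 arrays of a group came from separate embryos or cultures, and the p-values below therefore stand for array-to-array spread, which may be technical.

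Both rsEpiSC groups were grown alike, on mouse embryonic fibroblasts (MEFs) in N2B27 medium with 2.5 µM IWR1, which blocks Wnt/β-catenin signalling by stabilising Axin, and 20 ng/ml of a factor that the labels do not name. The labels also call these cells intrinsic state epiblast stem cells. EpiSC were kept with 12 ng/ml FGF2, 20 ng/ml Activin A and 20% KSR on MEFs, and ESC with 3 µM CHIR99021, 1 µM PD0325901 and LIF on MEFs. All 12 samples carried OCT4-deltaPE-GFP, a fluorescent reporter driven by part of the Oct4 regulatory region, crossed to a C57BL background. Levels are log2 array signals, on which a difference of 1 is 2-fold, and each difference is E6.5 minus E5.75.

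After implantation the epiblast leaves naive pluripotency and turns on genes such as Fgf5, Otx2 and Dnmt3b, a condition called primed. The anterior epiblast goes on to form neural and surface ectoderm, while the posterior epiblast, under Wnt, Nodal and FGF signals, passes through the primitive streak into mesoderm and endoderm. Lines taken from the epiblast keep dividing in culture, and their expression can carry marks of both the embryo stage and the medium.

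The label was checked against markers of the post-implantation epiblast. Sox2 and Otx2, transcription factors of the epiblast and of early neural tissue, were near their epiblast levels in all 4 rsEpiSC arrays. Sox2 was at 9.63 and 10.05 in E6.5 lines and at 10.37 and 9.87 in E5.75 lines, against 9.48 to 9.90 in epiblast. Otx2 was at 9.41 and 8.93 in E6.5 lines and at 9.29 and 9.29 in E5.75 lines, against 9.00 to 9.35 in epiblast. Fgf5 and Dnmt3b were below their epiblast levels in all 4 arrays. Fgf5 was at 3.78 to 6.88, against 8.45 to 9.03 in epiblast, and Dnmt3b at 8.09 to 10.60, against 11.43 to 11.75. Cdh2 was at 8.33 to 8.90, against 7.09 to 8.59 in epiblast. The naive factors Klf4, Esrrb and Zfp42 were at most 4.94 in the 4 arrays and at 6.62 to 10.47 in ESC. Pou5f1, which encodes Oct4, was at 5.23 and 4.84 in E6.5 lines and at 4.86 and 3.86 in E5.75 lines, below the 5.54 to 7.11 of the other 8 arrays. Nanog and Tdgf1, an epiblast co-receptor for Nodal, were likewise below all other 8 arrays in all 4. Of 21 measured genes of the anterior and neural ectoderm list, 12 were above all other 8 arrays in all 4 rsEpiSC arrays (57.1%, against 2.92% of all autosomal genes), among them Sox1, Pax6, Fezf2, Rax and Lhx2. So were 6 of 17 mid- and hindbrain and posterior neural genes (35.3%). These measurements go partly against the label of epiblast stem cells, and the lines are called rsEpiSC here by their label alone.

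Over all genes the groups were close. The 2 E6.5 arrays correlated at r = 0.988 and the 2 E5.75 arrays at r = 0.986, and pairs across stages at 0.977 to 0.982. The root mean square SD within a group was 0.24 in E6.5 lines and 0.26 in E5.75 lines, the lowest of the 6 groups, whose highest was 0.46 in E5.75 epiblast. The median difference over the 21062 autosomal genes was -0.006, with 10326 positive and 10735 negative. Outside the autosomal comparison, Xist, the RNA of the inactive X chromosome, was at 3.17 and 2.65 in E6.5 lines, against 8.23 and 10.19 in E5.75 lines, and the Y-linked Eif2s3y was at 7.64 and 7.36, against 5.16 and 2.33. The part of sex in the autosomal differences below was not tested.

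Of the autosomal genes, 15 differed between the derivation stages, 12 higher and 3 lower in E6.5 lines. They include Utf1, a chromatin-associated factor of pluripotent cells, Nnat, an imprinted gene expressed from the paternal copy, and Car4, a membrane-anchored carbonic anhydrase, all higher in E6.5 lines. Dmrt3, a DM-domain transcription factor, Pmel, the fibril protein of melanosomes, and Thbs1, a secreted matricellular glycoprotein, were lower. The 15 genes are 0.0712% of the 21062 tested at an adjusted p under 0.05, with 0.057% called higher and 0.0142% lower, and all differed by at least 2-fold. Of the 15, only Snora19 passed without E6.5 replicate 1, 2 without E5.75 replicate 1, 3 without E5.75 replicate 2, and 6 without E6.5 replicate 2 or either E6.5 epiblast array, while a fit of the 4 rsEpiSC arrays alone called 149 (0.707%; 0.304% higher and 0.404% lower), the 15 among them.

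**Figure D1:**
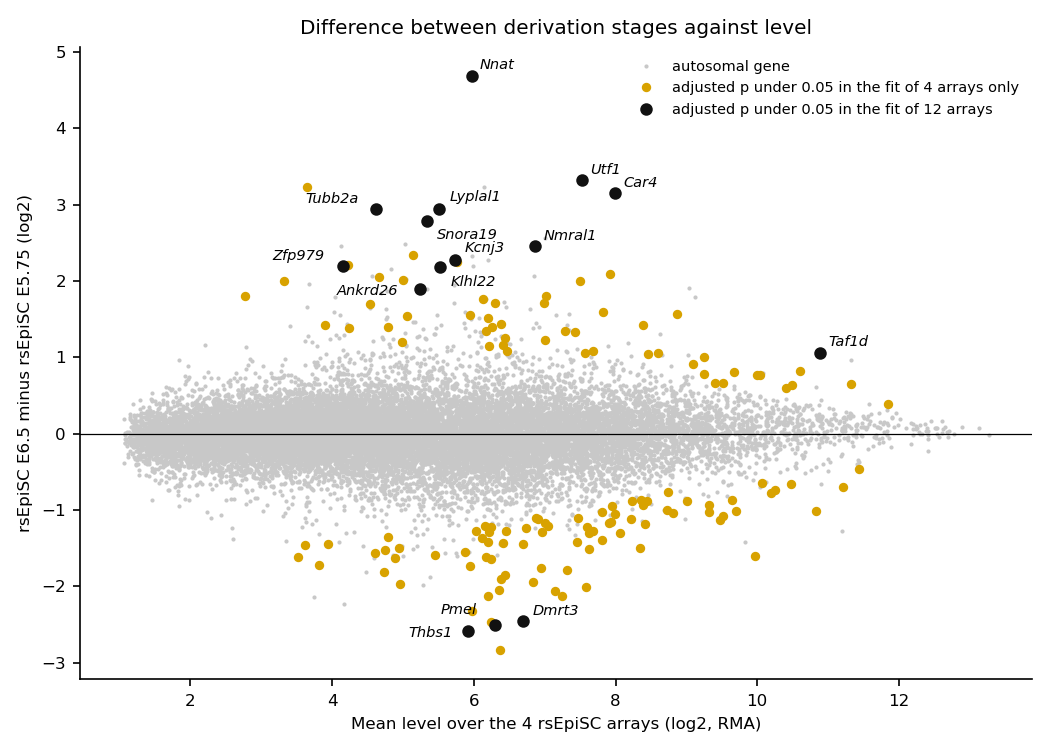
Difference between rsEpiSC E6.5 and rsEpiSC E5.75 (vertical axis, log2) against the mean level over the 4 arrays (horizontal axis, log2), 1 point for each of 21062 autosomal genes. Black points are the 15 genes that passed in the fit of 12 arrays, 12 above the zero line and 3 below it; yellow points are the others of the 149 that passed in the fit of 4 arrays alone.

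Among regulators of pluripotency, Utf1 was at 9.62 and 8.76 in E6.5 lines, against 5.36 and 6.37 in E5.75 lines (difference 3.32 ± 0.37 SE, adjusted p = 0.00587). The stages did not overlap, as for 43.6% of all autosomal genes, and the E5.75 lines lay below all other 8 arrays, which spanned 7.76 to 10.42. Nnat, which encodes a small membrane proteolipid of endoplasmic reticulum and is prominent in developing brain, was at 9.58 and 7.04, against 3.78 and 3.47 (4.69 ± 0.66, adjusted p = 0.0209). Its E6.5 arrays differed by 2.54 between themselves, and a second probe set of the gene read 9.38 and 8.22, against 5.85 and 5.89. Epiblast tissue had Nnat at 8.71 and 9.23 at E6.5 and at 9.70 and 8.66 at E5.75, whereas EpiSC and ESC were at 3.81 to 5.05. Nnat lies within Blcap, and Blcap was at 5.34 and 5.35 in E6.5 lines, against 5.22 and 5.49 in E5.75 lines (-0.01 ± 0.28), with no difference beyond the spread.

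The 250 bases upstream of the transcription start are shown for 4 of the genes, Utf1 and Nnat, which had the largest positive differences, Lyplal1, which had the lowest p, and Dmrt3, the transcription factor among the 3 lower genes. For Dmrt3 the start used lies inside the annotated gene, which begins at 25610246, so its window falls within the gene's span. CG dinucleotides, the sites of DNA methylation in mammals, are in capitals, and the sequences are those of RefSeq on GRCm38.p6, written along the gene's strand.
Utf1 (forward strand, chr7:139943606-139943855): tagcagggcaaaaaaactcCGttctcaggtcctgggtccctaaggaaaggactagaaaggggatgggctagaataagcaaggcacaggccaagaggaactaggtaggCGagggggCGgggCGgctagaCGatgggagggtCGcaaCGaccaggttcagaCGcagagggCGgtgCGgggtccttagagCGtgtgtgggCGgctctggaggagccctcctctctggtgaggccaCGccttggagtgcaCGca
Nnat (forward strand, chr2:157559828-157560077): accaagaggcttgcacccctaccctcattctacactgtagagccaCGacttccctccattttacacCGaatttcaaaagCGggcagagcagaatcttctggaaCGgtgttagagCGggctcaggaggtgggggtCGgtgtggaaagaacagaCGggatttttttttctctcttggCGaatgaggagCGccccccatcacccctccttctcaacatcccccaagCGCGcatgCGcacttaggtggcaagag
Lyplal1 (reverse strand, chr1:186117311-186117560): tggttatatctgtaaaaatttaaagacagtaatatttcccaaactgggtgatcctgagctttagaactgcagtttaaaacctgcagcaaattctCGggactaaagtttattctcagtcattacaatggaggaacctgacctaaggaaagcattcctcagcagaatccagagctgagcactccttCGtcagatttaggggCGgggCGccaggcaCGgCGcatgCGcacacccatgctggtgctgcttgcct
Dmrt3 (forward strand, chr19:25610287-25610536): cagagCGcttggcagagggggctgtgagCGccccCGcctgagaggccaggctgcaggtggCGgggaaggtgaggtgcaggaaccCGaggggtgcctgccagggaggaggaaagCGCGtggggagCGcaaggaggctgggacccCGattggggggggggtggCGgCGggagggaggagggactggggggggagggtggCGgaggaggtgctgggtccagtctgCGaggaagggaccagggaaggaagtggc
The windows hold 14 CG in Utf1, 12 in Nnat, 7 in Lyplal1 and 13 in Dmrt3. Windows were found for 11 of the 15 genes, with 2 to 22 CG each. Of those 11, 8 held more than 10, the median over 16291 autosomal genes, and 48.7% of all those windows did so. The search counted CG on either strand, since the dinucleotide reads the same on both.

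Enzymes and membrane proteins made up the next group of genes that rose. Car4, which hydrates carbon dioxide at the cell surface, was at 9.68 and 9.45 in E6.5 lines, against 6.92 and 5.92 in E5.75 lines (3.14 ± 0.37, adjusted p = 0.00656). Epiblast tissue had Car4 at 9.49 to 10.38, and EpiSC and ESC at 4.11 to 4.94, so the E5.75 lines lay between the tissue and the other lines. Lyplal1, a serine hydrolase of the lysophospholipase-like family, was at 7.13 and 6.82, against 4.14 and 3.93 (2.94 ± 0.31, adjusted p = 0.0041). Kcnj3, a subunit of G-protein-gated inward-rectifier potassium channels, was at 7.15 and 6.58, against 4.84 and 4.35 (2.27 ± 0.30, adjusted p = 0.0187), and its E6.5 arrays were above all other 8. Nmral1, an NADPH-binding redox sensor, was at 8.05 and 8.14, against 5.86 and 5.42 (2.46 ± 0.38, adjusted p = 0.0358), again with the E6.5 arrays above all others. In each of these 4 genes both E6.5 arrays were above both E5.75 arrays by more than the arrays of a stage differed. The genes were chosen by this difference, so the separation adds no further evidence, and 43.6% of all autosomal genes did not overlap.

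Structural and adaptor genes followed. Tubb2a, a β-tubulin, was at 5.89 and 6.29 in E6.5 lines, against 3.07 and 3.24 in E5.75 lines (2.94 ± 0.35, adjusted p = 0.00656). The other 8 arrays held Tubb2a at 5.64 to 6.96, so that the E5.75 lines alone were low. Ankrd26, an ankyrin-repeat protein of the centrosome, was at 6.24 and 6.14, against 4.49 and 4.09 (1.90 ± 0.26, adjusted p = 0.0209). Klhl22, an adaptor of CUL3 ubiquitin ligases, was at 7.05 and 6.17, against 4.25 and 4.61 (2.18 ± 0.33, adjusted p = 0.03). Both showed the same order as Tubb2a, with E5.75 lines below every other array.

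In RNA-related genes, Taf1d, a subunit of the selectivity factor of RNA polymerase I and a host of small nucleolar RNAs, was at 11.44 and 11.41 in E6.5 lines, against 10.49 and 10.23 in E5.75 lines (1.06 ± 0.16, adjusted p = 0.0358). Of its other 10 probe sets 9 differed in the same direction, with a median of 0.72 and a range of -0.26 to 1.80. Among these, 2 had the same values in all 4 rsEpiSC arrays (difference 1.77) and may not be separate measurements. Snora19, a small nucleolar RNA encoded within the translation factor gene Eif3a, was at 6.39 and 7.07, against 3.65 and 4.23 (2.79 ± 0.33, adjusted p = 0.00656), and Eif3a differed by 0.12 ± 0.17. Zfp979, a zinc finger gene in a cluster of near-identical paralogs on chromosome 4, was at 5.09 and 5.41, against 3.37 and 2.74 (2.20 ± 0.33, adjusted p = 0.0286). Its other 2 probe sets differed by 0.11 and -0.02, so the value rests on 1 of 3 probe sets and is uncertain.

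The 3 genes lower in E6.5 lines, chosen by their difference as well, showed a similar separation. Dmrt3, known from neuron specification in spinal cord and from forebrain, was at 5.26 and 5.66 in E6.5 lines, against 8.42 and 7.41 in E5.75 lines (-2.46 ± 0.35, adjusted p = 0.0209). Pmel was at 4.98 and 5.12, against 7.35 and 7.74 (-2.50 ± 0.35, adjusted p = 0.0209). For both genes the E5.75 lines were above all other 8 arrays. Thbs1 was at 4.45 and 4.81, against 7.10 and 7.33 (-2.59 ± 0.37, adjusted p = 0.0228). EpiSC also had high Thbs1, and the other 8 arrays ran from 3.84 to 8.68. Near the threshold, Taf1d passed at 0.0358 and Neto1, a kainate receptor auxiliary protein, did not at 0.0538 (2.60 and 2.73 in E6.5 lines, against 4.16 and 5.45 in E5.75 lines).

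**Figure D2:**
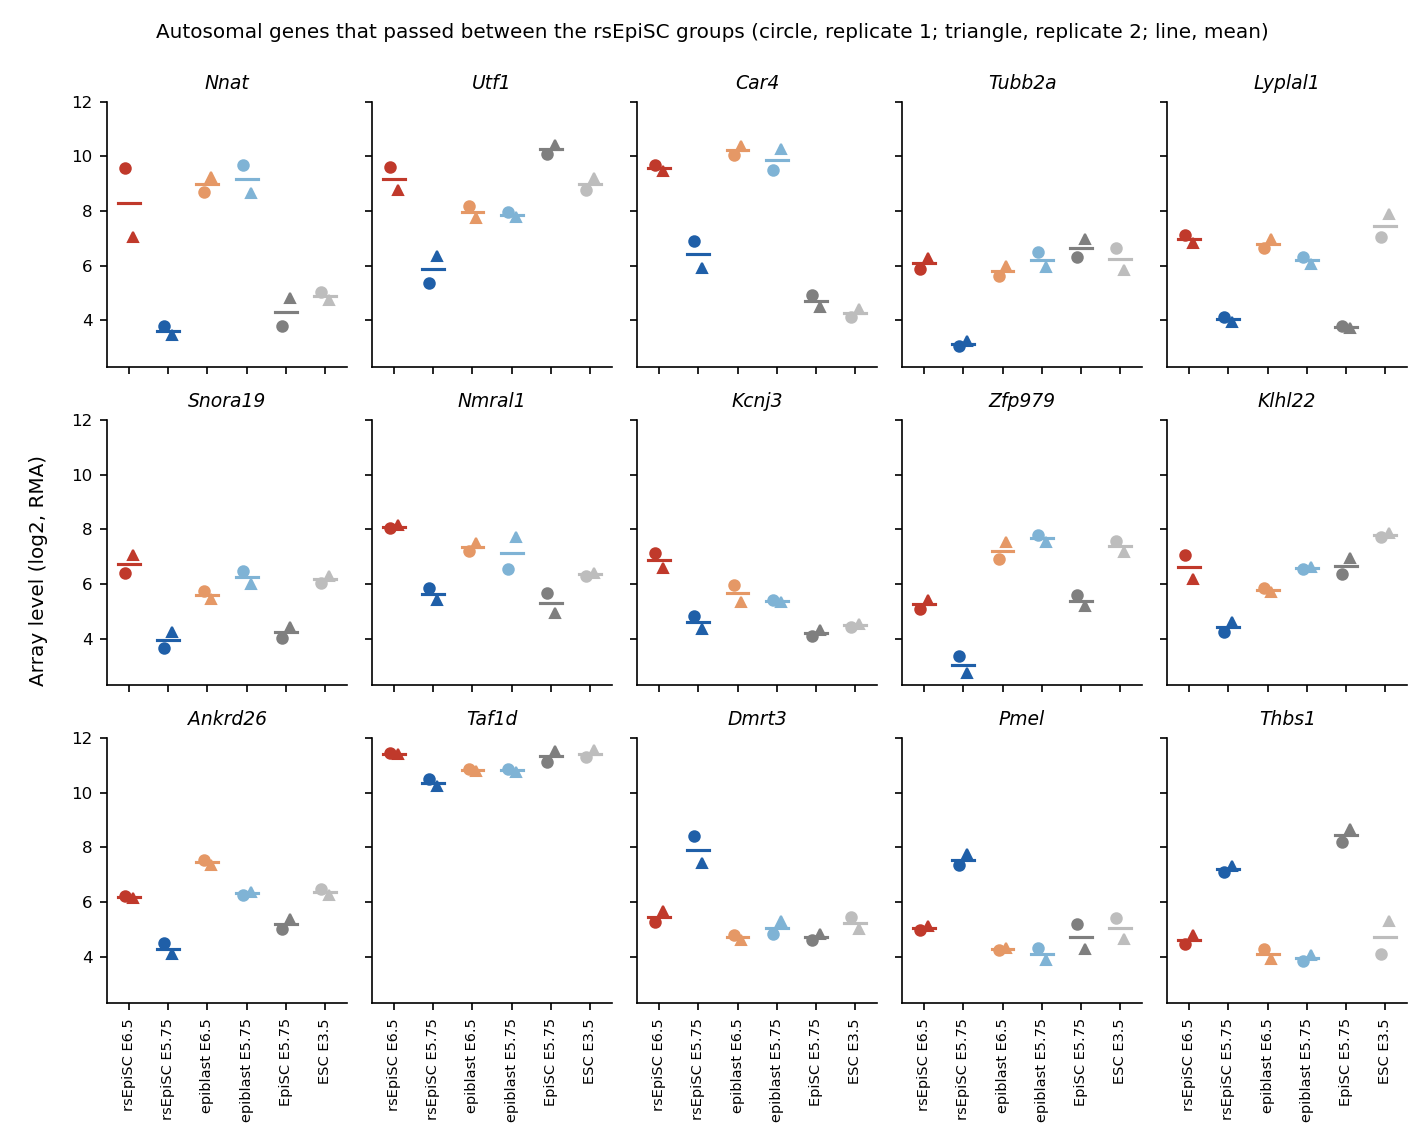
Array level (log2) of each of the 15 genes in the 12 arrays, by group; circles are replicate 1, triangles replicate 2 and lines group means. The rsEpiSC E6.5 points (red) and the rsEpiSC E5.75 points (dark blue) do not overlap in any of the 15 genes, which were chosen by this difference (43.6% of all autosomal genes do not overlap), and in 9 of them the rsEpiSC E5.75 points lie outside the range of the other 8 arrays.

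Set against the other 8 arrays, it was more often the E5.75 lines that stood apart among these 15 genes. The E5.75 lines were below all 8 in 7 genes (Nnat, Utf1, Tubb2a, Zfp979, Klhl22, Ankrd26 and Taf1d) and above all 8 in Dmrt3 and Pmel. The E6.5 lines were above all 8 in Kcnj3 and Nmral1. Neither stage was outside in Car4, Lyplal1, Snora19 and Thbs1. Over all autosomal genes the E6.5 lines were outside the other 8 in 8.96% and the E5.75 lines in 10.7%. Among the 359 genes with separate groups and at least 2-fold difference (1.7% of those tested), the E6.5 lines were outside in 55 and the E5.75 lines in 129. No test was made of the difference between these counts.

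The 15 genes lay on 11 chromosomes and their nearest measured neighbours mostly differed little. Over 30 neighbours the median difference was 0.03. Only 2 neighbours differed by at least 2-fold, Bphl beside Tubb2a and Rab5b beside Pmel. Bphl was at 7.09 and 6.59 in E6.5 lines, against 5.43 and 5.56 in E5.75 lines (1.35 ± 0.34). Rab5b, whose annotated span overlaps that of Pmel, was at 6.37 and 6.32, against 7.47 and 7.44 (-1.11 ± 0.33). Neither passed in the fit of 12 arrays, with adjusted p = 0.34 and 0.53. Around Zfp979, within 2 Mb on each side, 8 of 10 zinc finger genes named Zfp had a positive difference, with a median of 0.54. Of all 51 genes there, 33 had a positive difference, and the median was 0.11. Zfp979 itself, chosen by its difference, is counted in both sets. Zfp982 in that window was at 4.82 and 3.82 in E6.5 lines, against 2.30 and 2.35 in E5.75 lines (2.00 ± 0.45, adjusted p = 0.238), and these paralogs may share probes.

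The probe sets of the 5 hairpins of the Mir302 and Mir367 cluster, which is abundant in pluripotent cells, were also examined after their values had been seen. The cluster spans 580 bp at chr3:127545228-127545807 (GRCm38.p6). Mature sequences from RefSeq are shown with bases 2 to 8, the seed that pairs with targets, in capitals, because the hairpins fall into few seed groups.
mmu-miR-302b-3p (forward strand, chr3:127545275-127545297): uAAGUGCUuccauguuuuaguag
mmu-miR-302d-3p (forward strand, chr3:127545665-127545687): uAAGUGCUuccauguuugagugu
mmu-miR-302c-3p (forward strand, chr3:127545406-127545427): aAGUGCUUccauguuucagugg
mmu-miR-302a-5p (forward strand, chr3:127545501-127545522): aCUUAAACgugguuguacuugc
mmu-miR-367-3p (forward strand, chr3:127545779-127545800): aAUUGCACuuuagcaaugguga
The 3′ arms of miR-302b and miR-302d share a seed, that of miR-302c is shifted by 1 base, and miR-367 has another. For miR-302a the 5′ arm is shown. Mir302a was at 5.58 and 4.94 in E6.5 lines, against 2.11 and 1.94 in E5.75 lines (3.23 ± 0.72, adjusted p = 0.216). Mir302c was at 5.56 and 5.12, against 2.65 and 3.60 (2.21 ± 0.53, adjusted p = 0.289). Mir302d was at 5.49 and 5.21, against 2.07 and 3.72, and Mir302b at 6.15 and 4.55, against 2.32 and 3.92. For these 4 hairpins the stages did not overlap, as for 43.6% of all autosomal genes, but for Mir367 they did, at 6.26 and 4.97, against 2.11 and 5.43. None passed in the fit of 12 arrays, and in the fit of 4 arrays Mir302a (adjusted p = 0.00554) and Mir302c (adjusted p = 0.0322) did. In epiblast tissue Mir302a was at 6.40 to 7.56, Mir302c at 2.59 to 3.64, Mir302b at 2.51 to 6.64, Mir302d at 2.19 to 5.59 and Mir367 at 3.74 to 7.01. EpiSC and ESC had Mir302a at 0.85 to 3.78, Mir302c at 1.95 to 3.56, Mir302b at 2.14 to 5.23, Mir302d at 2.35 to 4.33 and Mir367 at 2.00 to 4.84. Low values in the E5.75 lines were therefore not particular to them. The lower quartile of the E5.75 arrays was 3.37 and 3.35, so several of these values are low signals. A hairpin's probe set may read the precursor or its host transcript, and not the mature strands alone.

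On the same fit, 35 gene lists of lineages, pathways and cell types were counted, and 33 had no member that passed. Utf1 was the member of core pluripotency and Nnat that of imprinted genes that did. Members are therefore also given by an unadjusted p under 0.05, which 981 autosomal genes reached (4.66%), 450 higher in E6.5 lines (2.14%) and 531 lower (2.52%). The list medians ran from -0.661 to 0.346.

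**Figure D3:**
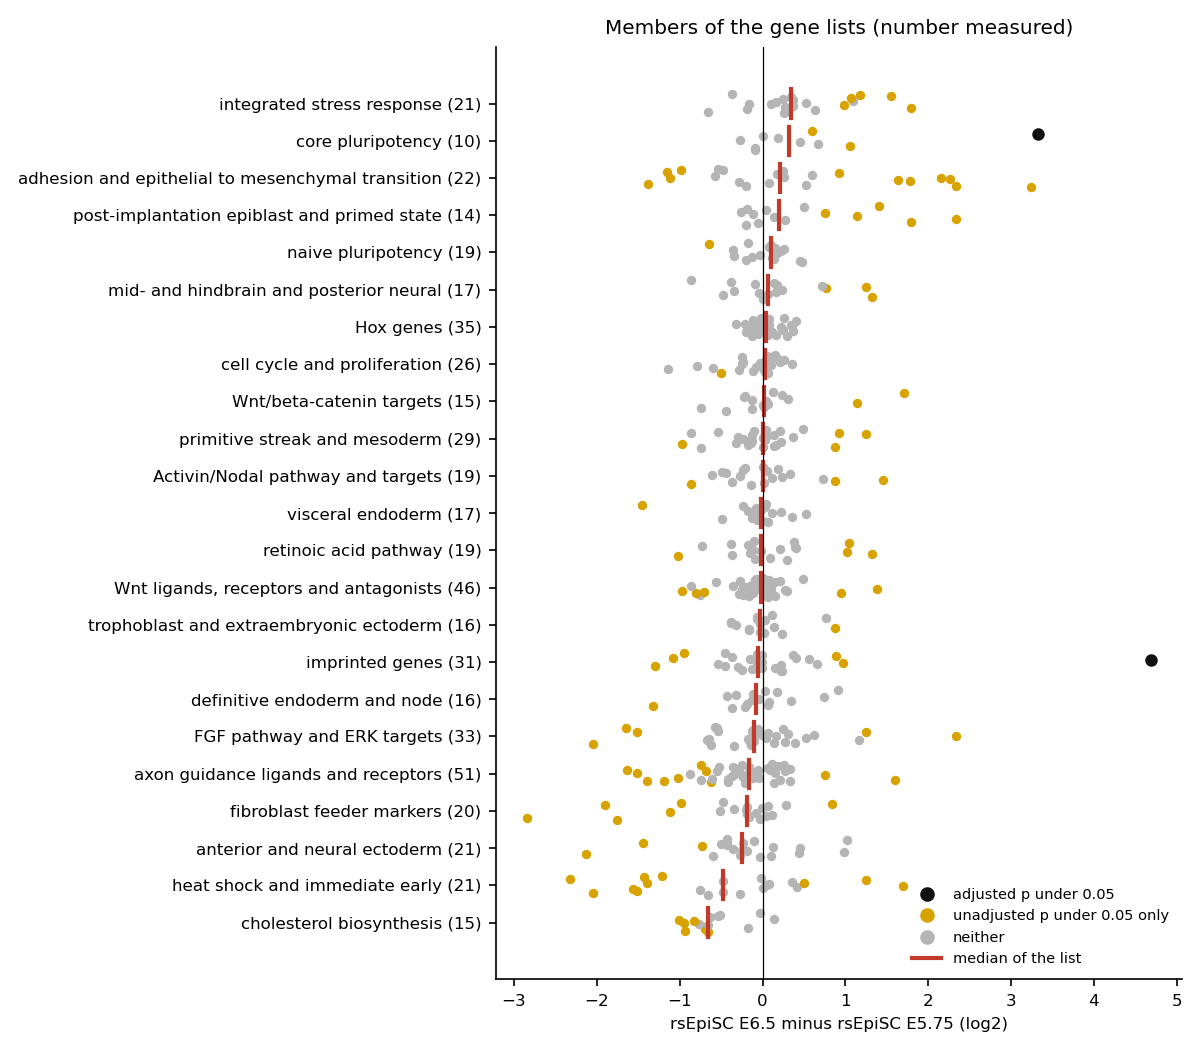
Difference between rsEpiSC E6.5 and rsEpiSC E5.75 (horizontal axis, log2) of each measured member of 23 gene lists (rows, with the number measured), ordered by their medians, marked in red. Cholesterol biosynthesis has the lowest median, -0.661, and the integrated stress response the highest, 0.346; the black points are Utf1 and Nnat.

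Core pluripotency genes had a median difference of 0.32 over 10 genes, with 3 higher and none lower at the unadjusted threshold. Besides Utf1 these were Nanog, at 6.44 and 6.32 in E6.5 lines, against 5.08 and 5.56 in E5.75 lines (1.06 ± 0.35, adjusted p = 0.66), and Zfp281. Of 14 primed genes, 5 were higher and none lower at that threshold, with a median of 0.20, against -0.092 between epiblast stages. Fgf5, the growth factor that marks the post-implantation epiblast, was at 6.88 and 5.75, against 3.78 and 4.17 (2.34 ± 0.65, adjusted p = 0.468). Dnmt3b, the de novo DNA methyltransferase, was at 10.60 and 9.44, against 8.09 and 8.37 (1.79 ± 0.55, adjusted p = 0.58). Zic5, Lef1 and Pou3f1 were the other 3. Epiblast tissue had Fgf5 at 8.45 to 9.03 and Dnmt3b at 11.43 to 11.75, above both rsEpiSC groups. Of 19 naive genes 1, Tfcp2l1, was lower at the unadjusted threshold, and the median was 0.10.

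Genes of anterior and neural ectoderm ran the other way, with a median of -0.25 over 21 genes, 15 of them negative. The mean level over the list was 5.66 and 5.61 in E6.5 lines, against 6.04 and 5.71 in E5.75 lines. The shift of the mean therefore lay mostly in E5.75 replicate 1. Fezf2, a zinc finger regulator of forebrain, was at 6.15 and 6.22 in E6.5 lines, against 8.63 and 7.99 in E5.75 lines (-2.13 ± 0.35, adjusted p = 0.0538). Rax, the eye-field homeobox factor, was at 5.53 and 5.76, against 7.56 and 6.61 (-1.44 ± 0.33, adjusted p = 0.238). Pax6 was the other member lower at the unadjusted threshold and no member was higher. The list of mid- and hindbrain and posterior neural genes had 3 higher and none lower of 17, with a median of 0.07. They were Cyp26a1, which degrades retinoic acid (6.91 and 6.58, against 6.14 and 4.69), Nkx1-2 (6.40 and 5.48, against 4.55 and 4.84) and Irx3. None of 35 Hox genes reached the unadjusted threshold, and none differed by more than 0.41.

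Primitive streak and mesoderm genes had a median of 0.01 over 29 genes, with 3 higher, Eomes, Snai1 and Nkx1-2, and 1 lower, Foxc1, at the unadjusted threshold. Of 16 definitive endoderm genes only Cxcr4, a chemokine receptor, was past it, at 6.46 and 7.05 in E6.5 lines, against 7.46 and 8.72 in E5.75 lines. Visceral endoderm had 1 lower of 17, Spink1, and trophoblast 1 higher of 16, Eomes.

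Adhesion and epithelial to mesenchymal transition genes varied most between the 2 E6.5 arrays. Cdh1, which encodes E-cadherin, was at 9.59 and 5.94 in E6.5 lines, against 4.50 and 4.56 in E5.75 lines (3.23 ± 0.82, adjusted p = 0.36). Its difference between the 2 E6.5 arrays, 3.65, was the largest of any gene in that direction among genes with established names, and 12 autosomal genes were at least 4-fold higher in replicate 1 than in replicate 2. Another 11 were at least 4-fold lower in it, and between the 2 E5.75 arrays 26 genes differed by that much in either direction, so gaps of this size were found within both stages. Epcam, an epithelial adhesion molecule, was at 8.38 and 6.28, against 5.17 and 4.96, and Esrp1, an epithelial splicing regulator, at 7.22 and 4.59, against 3.92 and 3.58. Cldn6, a tight-junction claudin, was at 6.35 and 3.52, against 2.95 and 3.37. In each of these genes E6.5 replicate 1 was the higher array, while replicate 2 lay nearer to the E5.75 lines. Leaving out replicate 2, the lower array, must enlarge these differences, and in that fit, which takes the spread of the lone E6.5 array from the other groups, Cdh1 (5.06), Epcam (3.32), Esrp1 (3.47) and Cldn6 (3.20) passed; their call therefore rests on which E6.5 array is used. Epiblast tissue, EpiSC and ESC had Cdh1 at 7.88 to 10.73. Cdh2, N-cadherin, was at 8.33 and 8.90, against 8.83 and 8.81. Over the list 7 of 22 genes were higher and 4 lower at the unadjusted threshold, and none passed.

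**Figure D4:**
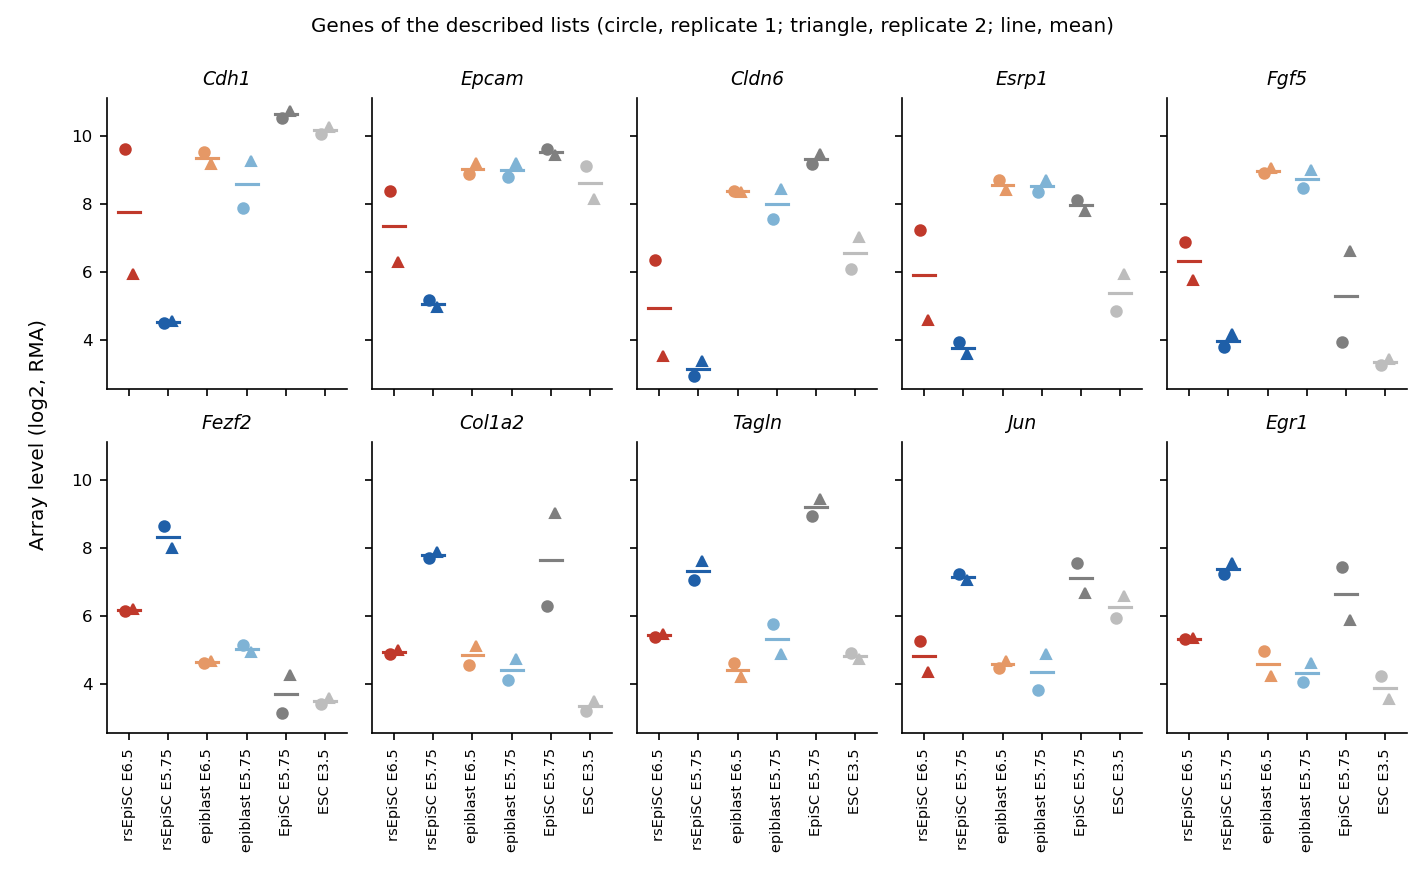
Array level (log2) of 10 genes from the lists in the 12 arrays, by group; circles are replicate 1, triangles replicate 2 and lines group means. In the epithelial genes Cdh1, Epcam, Cldn6 and Esrp1 the 2 rsEpiSC E6.5 arrays stand far apart, whereas in Fezf2, Col1a2, Tagln, Jun and Egr1 both lie below both rsEpiSC E5.75 arrays.

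Markers of the fibroblast feeders on which the lines grew were lower in E6.5 lines for some genes only. Of 20 measured markers, 5 were lower and 1, Thy1, higher at the unadjusted threshold, with a median of -0.18. None passed, but the fit of 4 arrays called 4 markers lower, Acta2, Col1a2, Fn1 and Tagln, and none higher. Col1a2, a fibrillar collagen chain, was at 4.89 and 5.01 in E6.5 lines, against 7.70 and 7.88 in E5.75 lines (-2.84 ± 0.63, adjusted p = 0.216). Tagln, an actin-binding protein, was at 5.39 and 5.48, against 7.06 and 7.61 (-1.90 ± 0.34, adjusted p = 0.101), and Acta2, smooth-muscle actin, at 5.68 and 6.44, against 7.85 and 7.79. Col1a1 was at 4.66 and 4.62, against 4.63 and 4.72, Col3a1 differed by -0.17, Dcn by -0.19 and Postn by -0.18. These 4 markers were near or below the median signal of their arrays (4.62 to 4.66), where a difference may not be measurable. Some brighter markers did not reach the unadjusted threshold either. Mmp2 was at 7.71 and 8.20, against 8.24 and 8.35, and Vim at 8.88 and 9.55, against 9.55 and 9.83. Col5a1 differed by 0.04 and Col6a1 by 0.12. The summed linear signal of the 20 markers was 1383.1 and 1760.4 in E6.5 lines and 2440.9 and 2723.6 in E5.75 lines, a sum carried by the brightest of them, such as Vim, Fn1 and Mmp2. The mean log2 level over the list was 4.98 and 5.05 in E6.5 lines, against 5.44 and 5.53 in E5.75 lines. Thbs1, lower in E6.5 lines, is made by fibroblasts too, and so are Ccn1 (-2.06 ± 0.41) and Timp3 (-1.94 ± 0.34). Ccn1 and Timp3 did not pass, but the fit of 4 arrays called both lower. Fewer feeder cells and less RNA per cell cannot be told apart in bulk samples, and the part of feeders in these values was not tested.

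The next list joined heat shock genes with immediate early genes, which respond quickly to growth factors and to handling. Of its 21 genes, 7 were lower in E6.5 lines and 3 higher at the unadjusted threshold, with a median of -0.47. Jun was at 5.28 and 4.35 in E6.5 lines, against 7.23 and 7.06 in E5.75 lines (-2.33 ± 0.43, adjusted p = 0.115). Egr1 was at 5.32 and 5.35, against 7.22 and 7.55 (-2.05 ± 0.46, adjusted p = 0.238), and Fos at 4.02 and 3.94, against 5.44 and 5.56. In the FGF and ERK list, 2 of 33 genes were higher and 3 lower, and Spry1, a feedback inhibitor, was at 5.47 and 5.37, against 6.80 and 7.33. None of these passed. Over both lists the fit of 4 arrays called Jun, Jund, Egr1, Fos, Klf6 and Spry1 lower and Ier3, an immediate early gene (1.25), and Fgf5 (2.34) higher.

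Cholesterol biosynthesis genes had the lowest list median, with 14 of 15 members negative. At the unadjusted threshold 7 were lower and none higher, and the fit of 4 arrays called 4 of them, Dhcr7, Hmgcs1, Lss and Mvd. Hmgcs1, the synthase that feeds the pathway, was at 10.93 and 10.80 in E6.5 lines, against 11.45 and 11.67 in E5.75 lines (-0.70 ± 0.24, adjusted p = 0.731). Dhcr7, which makes cholesterol in the last step, was at 8.81 and 8.90, against 9.67 and 9.90 (-0.93 ± 0.28, adjusted p = 0.555). Srebf2, the transcription factor that drives these genes, was at 9.11 and 9.30, against 9.98 and 10.17. The median of the list between epiblast stages was -0.444. There Dhcr7 differed by 0.35 ± 0.28, Hmgcs1 by -0.19 ± 0.24, Lss by -0.20 ± 0.35 and Mvd by -0.26 ± 0.33. Both rsEpiSC stages had high levels of this pathway, with 9 of the 15 genes above all other 8 arrays in all 4 (60%, against 2.92% of all autosomal genes).

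The integrated stress response list had the highest median, 0.35, with 17 of 21 members positive and 5 higher and none lower at the unadjusted threshold. Its median between epiblast stages was 0.059. Chac1, a glutathione-degrading enzyme, was at 8.44 and 7.39 in E6.5 lines, against 5.46 and 6.78 in E5.75 lines, and Trib3, a pseudokinase of that response, at 6.64 and 5.86, against 4.46 and 4.93. Neither passed. The mean level over the list was 8.38 and 7.84 in E6.5 lines, against 7.45 and 7.83 in E5.75 lines, so replicate 2 of both stages was nearly level and the shift lay in the replicate 1 arrays.

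In the Wnt pathway, which IWR1 in the rsEpiSC medium blocks, and in the Activin/Nodal pathway, the lists had medians near 0. The labels name Activin A for the EpiSC medium only. Axin2, the common readout of Wnt/β-catenin signalling, was at 5.82 and 6.16 in E6.5 lines, against 5.85 and 6.37 in E5.75 lines (-0.12 ± 0.30). The 15 Wnt targets had a median of 0.02, with 2 higher at the unadjusted threshold, Lef1 and Tnfrsf19 (7.59 and 8.09, against 6.40 and 5.87). Among 46 Wnt ligands, receptors and antagonists the median was -0.02, with 2 higher and 3 lower, and Rspo3, an enhancer of Wnt signalling, was at 4.88 and 4.96, against 3.71 and 3.37. None passed in the fit of 12 arrays, and the fit of 4 arrays called Tnfrsf19 and Rspo3 higher. Activin/Nodal genes had a median of 0.00 over 19 genes.

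Of 51 axon guidance genes 35 were negative, with a median of -0.17, and at the unadjusted threshold 2 were higher and 8 lower. Among the lower were the ephrins Efna5, at 7.79 and 7.86 in E6.5 lines, against 8.98 and 9.04 in E5.75 lines, and Efnb2, at 6.84 and 7.39, against 8.63 and 8.38, both called by the fit of 4 arrays. Of 31 imprinted genes, those other than Nnat had 2 higher, Meg3 and Rian, and 3 lower, Igf2, Peg3 and Zim1, at the unadjusted threshold. The fit of 4 arrays called Igf2 (6.88 and 7.07, against 8.33 and 8.21) and Peg3 (8.99 and 8.95, against 9.97 and 10.13) lower. Retinoic acid genes had 3 higher and 1 lower of 19, the lower being the binding protein Crabp1, which that fit also called. Cell cycle genes had 1 lower of 26, Aurkb. That fit called Ccnd2 of the cell cycle list lower instead, at 8.82 and 8.99, against 9.97 and 10.11. Between epiblast stages Ccnd2 differed by 1.69 ± 0.53.

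The same stages were compared in epiblast tissue, from samples that the lines do not share, to ask whether the difference between lines follows the one in the embryo. Between epiblast stages 5 autosomal genes passed (0.0237% of those tested), Mixl1, Daam1 and Mir3070a higher (0.0142%) and Dppa2 and H4c9 lower (0.0095%) at E6.5. Mixl1, a homeobox gene of the primitive streak, was at 6.95 and 7.88 in E6.5 epiblast, against 4.28 and 3.56 in E5.75 epiblast, and at 3.81 and 4.14 in E6.5 lines, against 4.46 and 3.73 in E5.75 lines. Dppa2, a gene of early pluripotent cells, was at 5.66 and 4.82 in E6.5 epiblast, against 7.88 and 8.39 in E5.75 epiblast, and at 3.98 and 4.08 in E6.5 lines, against 3.75 and 3.36 in E5.75 lines. None of the 5 passed between the lines, and in tissue the count was 0 without E6.5 epiblast replicate 2 and 147 without E5.75 epiblast replicate 2.

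None of the 15 genes of the lines passed in tissue, where their differences ran from -0.79 to 1.12, and 8 of 15 had the same sign. The tissue difference of Utf1 was 0.11 ± 0.37, that of Nnat -0.21 ± 0.66 and that of Car4 0.33 ± 0.37. Ankrd26 had the largest in the same direction, 1.12 ± 0.26. The test of the difference between the stage effects called none of the 21062 genes (0%), with Snora19 lowest at adjusted p = 0.0554 and 1807 genes (8.58%) at an unadjusted p under 0.05, so a difference between the 2 effects was not shown for any single autosomal gene. Across all autosomal genes, which are not independent, the stage differences in lines and tissue correlated at r = -0.013 and rho = -0.019.

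**Figure D5:**
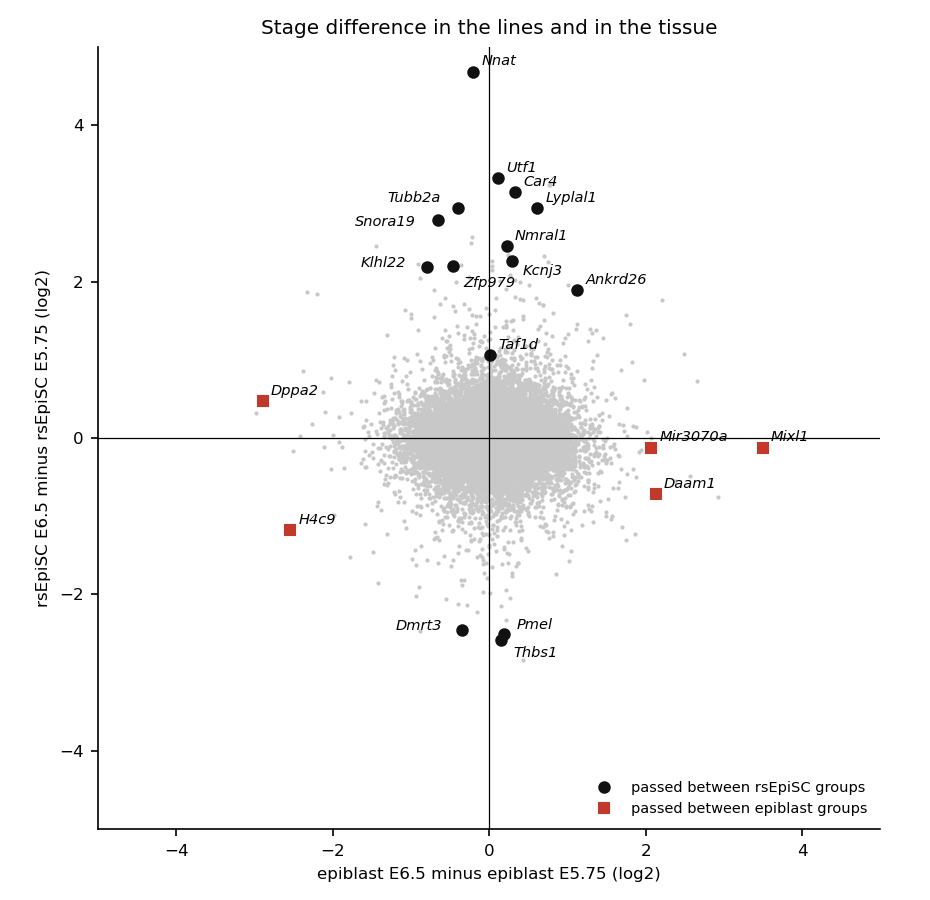
Stage difference E6.5 minus E5.75 in rsEpiSC (vertical axis, log2) against that in epiblast tissue (horizontal axis, log2), 1 point for each of 21062 autosomal genes. The 15 genes that passed in the lines (black) lie between -0.79 (Klhl22) and 1.12 (Ankrd26) on the horizontal axis, and the 5 that passed in tissue (red squares) do not overlap with them.

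Each stage's lines were also set against every other group. The mean profile of E6.5 lines correlated with E6.5 epiblast at r = 0.944, with E5.75 epiblast at 0.937, with EpiSC at 0.963 and with ESC at 0.939. That of E5.75 lines correlated with the same groups at 0.929, 0.921, 0.963 and 0.934. The 2 stages correlated with each other at 0.986. The tissue arrays had a narrower spread of values, with an interquartile range of 2.23 to 2.68 against 3.07 to 3.31 in the cultured arrays. Its part in these correlations and in the comparison of stage differences between lines and tissue was not tested.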

How the data were processed

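The authors deposited log2 values made by RMA with the oligo package, per the submitters' processing notes; no genome build or package version is named in those notes. The labelling protocol names a human array, but the probe identifiers match a mouse platform table. Of 41345 probe sets, 23521 had 1 gene symbol and gave 22180 genes, keeping the probe set with the highest mean for the 1082 genes that had several. The deposited log2 values were not renormalized. The tests were made in R 4.3.3 with limma 3.58.1, fitted to the 6 group means of all 12 arrays (6 residual degrees of freedom, trended prior), with Benjamini-Hochberg adjustment over all genes and a threshold of 0.05. The number of arrays, 2 a group, limits the precision. On simulated data of the rsEpiSC comparison this fit recovered 6% of genes changed by 1 log2 and 96% of those changed by 2, with 0 false calls; the fit of 4 arrays recovered 54% and 100%, with 15 false calls.

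Alternatives were the fit of 4 or 8 arrays, a replicate block, leaving out each rsEpiSC or epiblast array (no EpiSC or ESC array was left out), other probe set rules, a signal filter, quantile or median scaling, array weights and no trend. Named genes were the up to 15 with the largest change in each direction among those that passed, up to 4 passed and 2 others a list, and fixed markers, leaving out predicted genes and small RNAs; Snora19, the Mir302 and Mir367 hairpins and further list members were named after their values were seen. The comparison and the lists were chosen with earlier results of these data known. Replicate numbers did not pair the 2 rsEpiSC stages (r = 0.007 between the deviations of same-numbered arrays). Genes were placed on chromosomes through RefSeq on GRCm38.p6, which held 99.18% of the identifiers. The labels' strain and passage fields count up from array to array and were not used.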

Additional observations from a re-analysis of the deposited data

Results flagged for a closer look

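Outside the autosomal comparison, 4 sex-linked genes passed between the rsEpiSC stages, a signal on chromosomes that the comparison does not use. Xist differed by -6.30 (3.17 and 2.65 in E6.5 lines, against 8.23 and 10.19 in E5.75 lines) and Mid1, a microtubule-associated ubiquitin ligase, by -3.81 (6.60 and 7.02, against 10.57 and 10.68). The difference was 2.70 for 1700013H16Rik (6.74 and 6.80, against 4.14 and 4.02) and 2.38 for Xlr (5.66 and 5.09, against 2.83 and 3.16). The Y-linked Kdm5d, at 6.30 and 6.14 in E6.5 lines, against 4.56 and 2.53 in E5.75 lines, did not pass. The stage difference in lines minus that in epiblast tissue was -6.05 for Xist and -4.27 for Mid1, the 2 genes for which the test of that difference passed. The sex of the lines and the stage of derivation cannot be told apart.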

How the results depend on the processing

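The 15 genes kept their direction in 19 of 19 alternatives. This was largely fixed in advance, because stages that do not overlap keep their order when 1 array is left out. Several other alternatives, such as the fit of 4 arrays, use the same group means. Utf1, Car4, Lyplal1 and Snora19 passed in 17 alternatives, and Taf1d in the fewest, 7. For the rsEpiSC stages 149 genes passed in the fit of 4 arrays, 242 with array weights, 8 in the fit of 8 cultured arrays and 7 with every probe set kept. With the replicate block 11 genes passed, 8 higher and 3 lower, losing Nmral1 (adjusted p = 0.0797), Zfp979 (0.0586), Klhl22 (0.0687) and Taf1d (0.0827). Leaving out 1 rsEpiSC or epiblast array gave 1 to 19 genes. There were 1 without E6.5 replicate 1, 13 without E6.5 replicate 2 (13 higher, 0 lower, 6 of them among the 15), 4 without E5.75 replicate 1 (2 among the 15), 6 without E5.75 replicate 2 (3 among the 15), and 6 higher and 0 lower without either E6.5 epiblast array (all among the 15). For the epiblast stages, against 5, there were 0 in the fit of 4 arrays and with array weights, 1 with the replicate block and with every probe set, 3 above the median signal and with centred arrays, 13 after quantile normalization, and 0 to 147 without 1 array, the most without E5.75 epiblast replicate 2. For the difference between the stage effects, against 0, there were 4 above the median signal, 2 after quantile normalization and without the trend, 1 with centred arrays, and 0 to 4 without 1 array. Tagln and Timp3 passed without either E5.75 epiblast array, and Neto1 without E5.75 replicate 1. Among genes that did not pass, the difference changed sign when 1 array was left out for Axin2 (-0.382 to 0.136; above 0 without E5.75 replicate 2 or E6.5 replicate 1), Esrrb (-0.041 to 0.315; below 0 without E5.75 replicate 1), Otx2 (-0.359 to 0.121; above 0 without E6.5 replicate 2), Cdh2 (-0.486 to 0.075; above 0 without E6.5 replicate 1), Col1a1 (-0.081 to 0.013) and Blcap (-0.149 to 0.121), both above 0 without E5.75 replicate 2. Blcap was also at 0.001 after quantile normalization. The cause was not tested. In simulated data the fit of 12 arrays recovered 6% of 2-fold differences and the fit of 4 arrays 54%, with 0 and 15 false calls, and levels near the lowest signals carry no order.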
